A study of Rattus norvegicus with 10 samples.

Results

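The bile acid synthesis and export genes of rat liver were followed over 3 groups of rats. The 10 genes were chosen by name for their place in this route: Cyp7a1, Cyp8b1, Cyp27a1, Cyp7b1, Slc27a5, Baat, Nr0b2, Slc10a1, Abcb11 and Abcc2. A probe was taken for a gene where its accession belongs to that gene. In this way 9 of the 10 genes had a probe, with 10 probes in all, among the 13837 genes that were named on the 41012 probes of the array. Baat, which joins bile acids to glycine or taurine, matched no probe by accession and is not analysed here.

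Liver RNA of 10 male Sprague Dawley rats was hybridized to single-colour Agilent arrays, with 1 array per rat. The 3 control rats received only the solvent, propylene glycol, and the 4 rats of the SM group received sulfur mustard (SM), an alkylating blister agent, in that solvent as 1 dose of 3.5 mg/kg under the skin, which is 0.7 of the LD50. The 3 rats of the SM + MSTF group received the same dose of SM and, 1 h later, 120 mg/kg of MSTF by stomach, where MSTF is a mixture of plant salvianolic acids and total flavonoids. Every liver was removed at 24 h, the age of the rats is not given in the sources used here, and a group given MSTF without SM is not analysed here.

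Hepatocytes make bile acids from cholesterol by a classic route, which Cyp7a1 opens, and by an alternative route through Cyp27a1 and Cyp7b1, while Cyp8b1 sets how much of the product is cholic acid. The bile acids are joined to an amino acid, pumped into the bile canaliculus by Abcb11 and taken up again from sinusoidal blood by Slc10a1. Bile acids inside the cell bind the receptor FXR (Nr1h4), which raises the repressor SHP (Nr0b2), and SHP in turn lowers Cyp7a1 and Cyp8b1 transcription.

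Each value below is a signal on the log2 scale, the background-subtracted intensity of a probe after quantile normalization over the 10 arrays. All 10 probes lay well above background on all 10 arrays and were tested. A gene is followed by its probe of highest mean signal, and a gene is called changed where the limma fit over all 22991 tested probes gave a Benjamini-Hochberg adjusted p under 0.05 and a change of at least 1.5-fold. Depending on the array, 51.9% to 61.4% of the probes were well above background, and precision is limited by how few arrays there were.

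The liver label was checked against cell type markers. Transferrin (Tf), the most abundant of the 9 hepatocyte markers, read between 18.54 and 18.72 on the 10 arrays, and none of the 9 was called in any comparison. Of the 9, 3 had an unadjusted p under 0.05 in SM + MSTF compared to the control and for 3 the groups did not overlap, beside 9.54% and 15.4% of all tested probes. The counts were 0 and 1 in SM compared to the control, beside 16.4% and 17.9%, and 1 and 2 in SM + MSTF compared to SM, beside 15.9% and 14.7%. The log2 of the summed signal of the hepatocyte markers lay between 20.49 and 20.59 on the control arrays, 20.43 and 20.51 on the SM arrays, and 20.37 and 20.52 on the SM + MSTF arrays. Tf had the same value on 5 of the 10 arrays, because quantile normalization fixes the values of the brightest probes. Its narrow range, and that of a sum led by such probes, is therefore no measure of hepatocyte content. For the 7 bile duct cell markers with a probe, led by Slc4a2, this sum lay between 10.22 and 10.51 on the control arrays, 10.32 and 10.68 on the SM arrays, and 9.95 and 11.07 on the SM + MSTF arrays, and Cftr was well above background on none of the 10 arrays. In whole liver, fewer cells of a type and less RNA per cell cannot be told apart.

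Glass slides carried up to 4 arrays each. The 3 controls were on slide 1 together with SM + MSTF replicate 3, whereas SM + MSTF replicates 1 and 2 were on slide 3. The 4 SM arrays filled slide 2, so SM and slide 2 cannot be told apart. SM + MSTF replicate 3 also stood apart from the other arrays. It gave the lowest or the highest signal of the 10 arrays for 32.2% of the 22986 tested probes with a value on each array, where the other arrays did so for 14.5% to 23.6%. Among the 9 bile acid genes it was the lowest array for 3 (Cyp7a1, Cyp7b1 and Abcc2) and the highest for 3 (Cyp27a1, Slc27a5 and Slc10a1). SM replicate 3 was the lowest array for 5 of the 9, namely Cyp8b1, Cyp27a1, Slc27a5, Slc10a1 and Abcb11, while it was the lowest for 9.05% of all tested probes.

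None of the 9 measured genes was called by limma in any of the 3 comparisons. Over all tested probes, 552 (2.40%) were called in SM compared to the control and 290 (1.26%) in SM + MSTF compared to SM. In SM + MSTF compared to the control 0 probes (0%) were called, where 2194 probes had an unadjusted p under 0.05 and the unadjusted test of the study's methods called 285. Without SM + MSTF replicate 3, limma called 248 probes there. With any 1 control left out the 552 probes became 65 to 138, and with any 1 SM array left out 105 to 327. The 290 became 98 without SM replicate 1, 122 without SM replicate 3 and 115 without SM + MSTF replicate 1. At an unadjusted p under 0.05 stood 3 of the 9 genes in SM compared to the control (Cyp8b1, Nr0b2 and Slc10a1), against 16.4% of all tested probes. The number was 0 of 9 in SM + MSTF compared to the control, against 9.54%, and 2 of 9 (Cyp8b1 and Slc10a1) in SM + MSTF compared to SM, against 15.9%. The groups did not overlap for 2 genes (Slc10a1 and Abcc2) in SM compared to the control, where 17.9% of all probes did not. They did not overlap for 1 gene (Cyp27a1) in SM + MSTF compared to the control, against 15.4%, and for 1 (Cyp8b1) in SM + MSTF compared to SM, against 14.7%. The median log2 fold change of the 9 genes was -0.06 in SM compared to the control, 0.10 in SM + MSTF compared to the control and 0.12 in SM + MSTF compared to SM, beside 0.03, 0.00 and -0.02 over all tested probes. Of the 9 values, 4, 5 and 5 were above 0 in the same order, beside 55.9%, 51.0% and 46.4% of all tested probes. These are small counts over a list chosen by name, and the 3 comparisons share arrays.

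**Figure D1:**
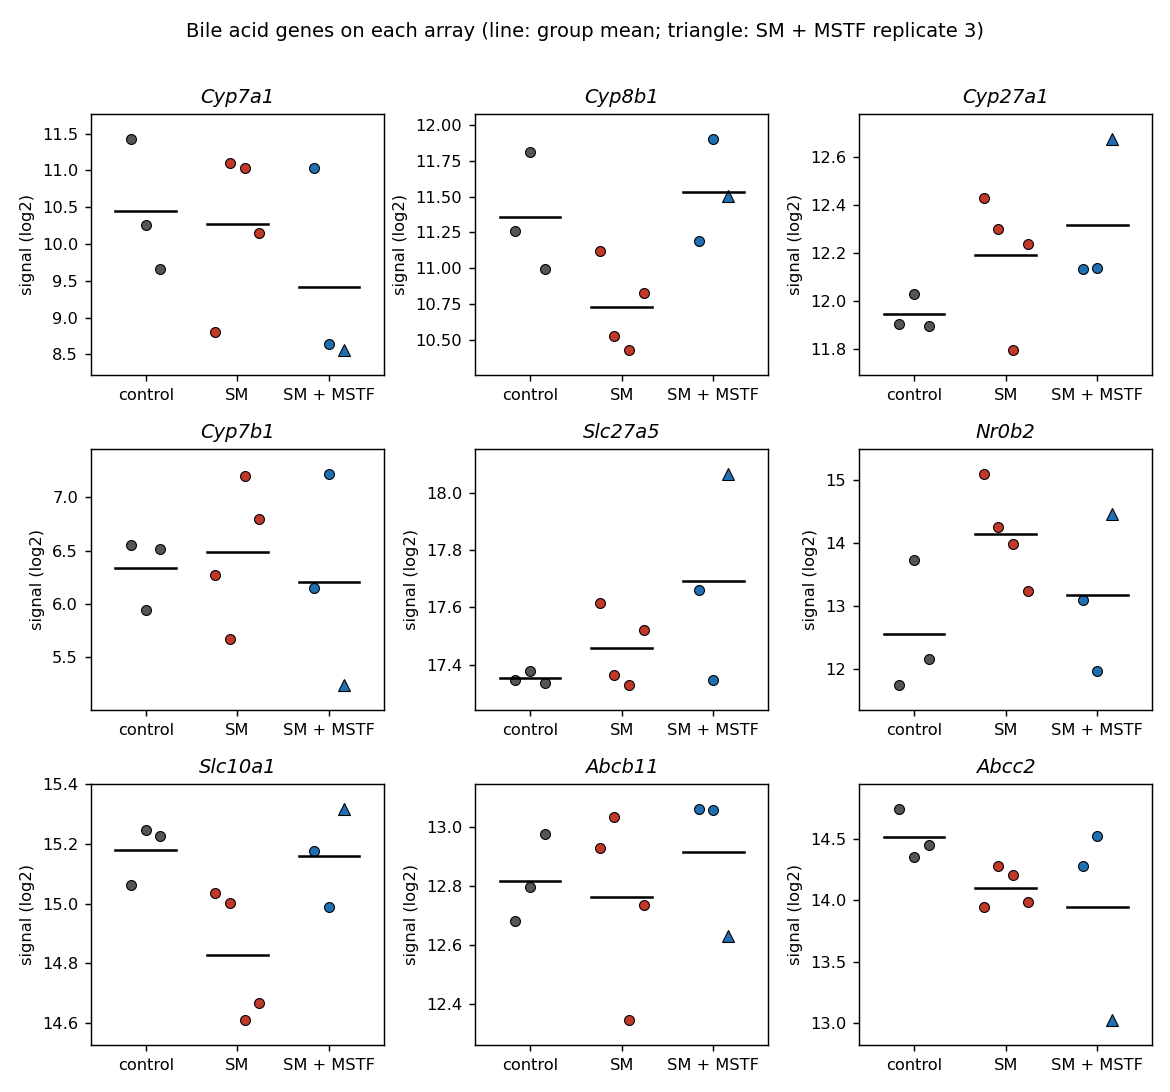
Signal (log2, vertical axis) of the 9 measured bile acid genes on each array, by group. Each point is 1 rat, the line is the group mean, and the triangle is SM + MSTF replicate 3, which was the lowest array for Cyp7a1, Cyp7b1 and Abcc2 and the highest for Cyp27a1, Slc27a5 and Slc10a1; each panel has its own scale.

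Cyp7a1, the rate-limiting enzyme of the classic route, read 11.43, 10.26 and 9.66 on control replicates 1 to 3. It read 8.80, 11.10, 11.03 and 10.14 on SM replicates 1 to 4. On SM + MSTF replicates 1 to 3 it read 11.04, 8.64 and 8.56. Each group held at least 1 rat with a high signal, the 3 lowest values came from SM replicate 1 and SM + MSTF replicates 2 and 3, and the groups overlapped. The log2 fold change was -0.18 in SM compared to the control (95% interval -1.85 to 1.49, adjusted p = 0.934). It was -1.03 in SM + MSTF compared to the control (-2.82 to 0.75, adjusted p = 0.706) and -0.86 in SM + MSTF compared to SM (-2.52 to 0.81, adjusted p = 0.581). Intervals this wide hold a large change in either direction as well as none.

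Much of that width is spread between rats of the same group. Cyp7a1 ranged over 1.77 log2 units within the control, 2.30 within SM and 2.48 within SM + MSTF, and the standard deviation of Cyp7a1 within groups was 1.14, larger than that of 99.2% of the tested probes, whose median was 0.20. Nr0b2 spread almost as widely, with a standard deviation of 1.01 within groups, above 98.8% of the tested probes. For Cyp7b1 it was 0.71, above 96.6%, and for Abcc2 it was 0.45, above 90.0%. Cyp8b1 stood at 0.36 (82.9%), and Cyp27a1, Abcb11, Slc27a5 and Slc10a1 lay between 0.18 and 0.25, closer to the median of all probes. The Abcc2 spread came mostly from 1 group, with ranges of 0.39 within the control, 0.34 within SM and 1.49 within SM + MSTF. In that group replicate 3 read 13.03.

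Cyp8b1, the sterol 12-alpha-hydroxylase that directs the classic route to cholic acid, read 11.26, 11.81 and 10.99 on the control arrays. The SM arrays gave 11.12, 10.53, 10.43 and 10.83, and the SM + MSTF arrays gave 11.19, 11.90 and 11.51. All 4 SM arrays lay below all 3 SM + MSTF arrays, while SM replicate 1 lay above control replicate 3. The means were 11.36 ± 0.42 (SD, n = 3) for the control, 10.73 ± 0.31 (SD, n = 4) for SM and 11.53 ± 0.36 (SD, n = 3) for SM + MSTF. The fitted difference was -0.63 in SM compared to the control (-1.18 to -0.08, adjusted p = 0.235), with -0.40 when control replicate 2 was left out and -0.81 when control replicate 3 was. In SM + MSTF compared to SM it was 0.81 (0.26 to 1.35, adjusted p = 0.167), which is 1.75-fold, and in SM + MSTF compared to the control it was 0.18 (-0.41 to 0.76, adjusted p = 0.855). Cyp8b1 had the lowest adjusted p of the 9 genes in SM + MSTF compared to SM and did not pass the threshold after adjustment. By the unadjusted test of the study's methods, with the same fold minimum, Cyp8b1 passed in this comparison, and no other of the 9 genes passed in any.

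The alternative route begins with Cyp27a1, the mitochondrial sterol 27-hydroxylase. Its signal was 11.91, 12.03 and 11.90 on the control arrays and 12.43, 12.30, 11.80 and 12.24 on the SM arrays. It was 12.14, 12.14 and 12.68 on the SM + MSTF arrays. All SM + MSTF arrays lay above all controls, and 3 of the 4 SM arrays did so too, SM replicate 3 being the exception. The fitted difference was 0.25 in SM (-0.15 to 0.64, adjusted p = 0.543) and 0.37 in SM + MSTF (-0.05 to 0.80, adjusted p = 0.570), each compared to the control. Between SM + MSTF and SM it was 0.12 (-0.27 to 0.52, adjusted p = 0.753).

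Cyp7b1, the oxysterol 7-alpha-hydroxylase that follows Cyp27a1, read 6.55, 5.94 and 6.51 on the control arrays. It read 6.27, 5.68, 7.20 and 6.80 on the SM arrays and 6.15, 7.22 and 5.24 on the SM + MSTF arrays. Both the highest and the lowest of its 10 values were in the SM + MSTF group. The log2 fold changes were 0.15 (-0.90 to 1.20) in SM and -0.13 (-1.25 to 0.99) in SM + MSTF, each compared to the control, and -0.28 (-1.33 to 0.77) in SM + MSTF compared to SM. Their adjusted p was 0.908, 0.950 and 0.791.

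Slc27a5, the bile acyl-CoA synthetase that readies bile acids for joining to an amino acid, was measured by 2 probes. The one of highest mean signal read 17.35, 17.38 and 17.34 on the control arrays, 17.62, 17.36, 17.33 and 17.52 on the SM arrays, and 17.66, 17.35 and 18.07 on the SM + MSTF arrays. The controls were tightly grouped and SM + MSTF replicate 3 was the highest array. On this probe the log2 fold change was 0.10 in SM (-0.25 to 0.45) and 0.34 in SM + MSTF (-0.04 to 0.71), each compared to the control, with adjusted p of 0.793 and 0.558. On the other probe the values were 0.16 (-0.22 to 0.53) and 0.49 (0.09 to 0.89), with adjusted p of 0.698 and 0.458, and all 3 SM + MSTF arrays lay above the controls. Between SM + MSTF and SM the probes gave 0.23 (-0.12 to 0.58) and 0.33 (-0.04 to 0.71), with adjusted p of 0.471 and 0.352.

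Nr0b2 (SHP), the bile acid induced repressor, had the largest fitted change of the 9 genes in any comparison. Its signal was 11.75, 13.74 and 12.16 on the control arrays and 15.10, 14.26, 13.98 and 13.24 on the SM arrays. It was 13.10, 11.97 and 14.46 on the SM + MSTF arrays. Of the SM arrays 3 lay above all controls, SM replicate 4 lay below control replicate 2, and the SM + MSTF arrays spread over the range of both groups. The log2 fold change was 1.59 in SM compared to the control, which is 3.02-fold, with an interval of 0.12 to 3.07 and an adjusted p of 0.266. It was 0.63 in SM + MSTF compared to the control (-0.95 to 2.21, adjusted p = 0.800) and -0.97 in SM + MSTF compared to SM (-2.45 to 0.51, adjusted p = 0.481). With each array left out in turn, the change in SM compared to the control lay between 1.19 and 2.19.

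The genes Nr0b2, Cyp8b1 and Slc10a1 had an unadjusted p under 0.05 in SM compared to the control, so the 250 bases before their starts are printed here, Nr0b2 by the rule for named genes and the others after their values were seen. RefSeq promoters of the assembly GRCr8 matched 7 of the 10 genes, all but Cyp7a1, Cyp7b1 and Abcb11. Capitals mark CAAGGCCA, CAAGGTCA or AGGTCA on either strand, letters bound by nuclear receptors such as NR5A2, and AGGTCA lies inside CAAGGTCA. The Nr0b2 bases are chr5:151062910-151063159 (plus strand), those of Cyp8b1 are chr8:130457593-130457842 (minus strand) and those of Slc10a1 are chr6:106357945-106358194 (minus strand).
Nr0b2: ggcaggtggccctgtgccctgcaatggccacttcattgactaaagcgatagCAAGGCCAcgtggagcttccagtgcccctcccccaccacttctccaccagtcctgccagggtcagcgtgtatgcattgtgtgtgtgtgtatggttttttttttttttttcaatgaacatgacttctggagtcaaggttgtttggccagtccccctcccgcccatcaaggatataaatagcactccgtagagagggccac
Cyp8b1: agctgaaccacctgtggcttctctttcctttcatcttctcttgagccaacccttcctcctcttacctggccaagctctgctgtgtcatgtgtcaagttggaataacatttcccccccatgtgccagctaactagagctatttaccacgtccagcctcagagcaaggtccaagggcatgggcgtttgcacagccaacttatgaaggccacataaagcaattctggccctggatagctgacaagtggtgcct
Slc10a1: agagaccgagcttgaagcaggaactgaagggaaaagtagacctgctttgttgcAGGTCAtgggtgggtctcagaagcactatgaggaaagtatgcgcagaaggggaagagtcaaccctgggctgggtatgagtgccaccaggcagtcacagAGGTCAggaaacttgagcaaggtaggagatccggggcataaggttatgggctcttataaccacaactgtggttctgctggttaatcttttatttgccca

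The Nr0b2 bases held CAAGGCCA once, 199 bases before the start, and these letters were in 1.86% of the 33469 promoters of this length. Those of Slc10a1 held AGGTCA at 197 and at 99 bases before the start, and 14.1% of the promoters held it, 3 of the 7 matched genes among them (Cyp27a1, Slc10a1 and Abcc2). CAAGGTCA was in 1.33% of the promoters and, of the 7 genes, only in that of Cyp27a1, 236 bases before the start on the opposite strand. The start used for Cyp27a1 lies inside the gene as listed, after its listed first base, whereas for Nr0b2, Cyp8b1 and Slc10a1 the window ends at the listed gene. In the Cyp8b1 bases none of these letters was found, which says only that they are not in this window.

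Slc10a1 (NTCP), the sodium-coupled carrier that takes bile acids up from blood, read 15.06, 15.25 and 15.23 on the control arrays. The SM arrays gave 15.03, 15.00, 14.61 and 14.67, and the SM + MSTF arrays gave 15.18, 14.99 and 15.32. All 4 SM arrays lay below all 3 controls, although SM replicate 1 lay just below control replicate 1, and SM + MSTF replicate 2 lay among the SM arrays. The log2 fold change was -0.35 in SM compared to the control (-0.66 to -0.05, adjusted p = 0.235), under the 1.5-fold minimum. It was 0.33 in SM + MSTF compared to SM (0.03 to 0.64, adjusted p = 0.283) and -0.02 in SM + MSTF compared to the control (-0.34 to 0.31, adjusted p = 0.978). With 75th percentile scaling in place of quantile normalization the Slc10a1 values shrank to -0.21 in SM compared to the control and 0.18 in SM + MSTF compared to SM.

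Abcb11 (BSEP), the pump that moves bile acids into the canaliculus, read 12.68, 12.80 and 12.98 on the control arrays. It read 12.93, 13.04, 12.35 and 12.73 on the SM arrays and 13.06, 13.06 and 12.63 on the SM + MSTF arrays. The groups overlapped, and the lowest signal was that of SM replicate 3. For Abcb11 the log2 fold change was -0.06 in SM compared to the control (-0.46 to 0.34, adjusted p = 0.909), 0.10 in SM + MSTF compared to the control (-0.33 to 0.53, adjusted p = 0.892) and 0.16 in SM + MSTF compared to SM (-0.25 to 0.56, adjusted p = 0.686). Each of the 3 intervals lay within a 1.5-fold change in either direction, a limit that describes the fit with all arrays only. With each array left out in turn, the Abcb11 value in SM + MSTF compared to the control lay between 0.03 and 0.24. In SM + MSTF compared to SM it lay between 0.02 and 0.30. Both were highest without SM + MSTF replicate 3.

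Abcc2 (MRP2), the canalicular pump for bilirubin glucuronides and other conjugates, was printed as 10 spots of the same probe. The standard deviation over these spots lay between 0.02 and 0.07 on each array, which covers variation within a hybridization only. Its signal was 14.74, 14.36 and 14.45 on the control arrays, 13.94, 14.28, 14.21 and 13.99 on the SM arrays, and 14.28, 14.52 and 13.03 on the SM + MSTF arrays. All SM arrays lay below all controls, and SM + MSTF replicate 3 was the lowest of the 10. The log2 fold change was -0.41 in SM compared to the control (-1.10 to 0.27, adjusted p = 0.559). It was -0.57 in SM + MSTF compared to the control (-1.30 to 0.16, adjusted p = 0.606) and -0.16 in SM + MSTF compared to SM (-0.84 to 0.52, adjusted p = 0.818). The 3 groups share the estimate of spread in the fit, and the Abcc2 SD was 0.20 in the control, 0.16 in SM and 0.80 in SM + MSTF. Without SM + MSTF replicate 3, the limma value in SM compared to the control stayed at -0.41. Its standard error went from 0.305 to 0.135 and its adjusted p from 0.559 to 0.146, still not called.

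**Figure D2:**
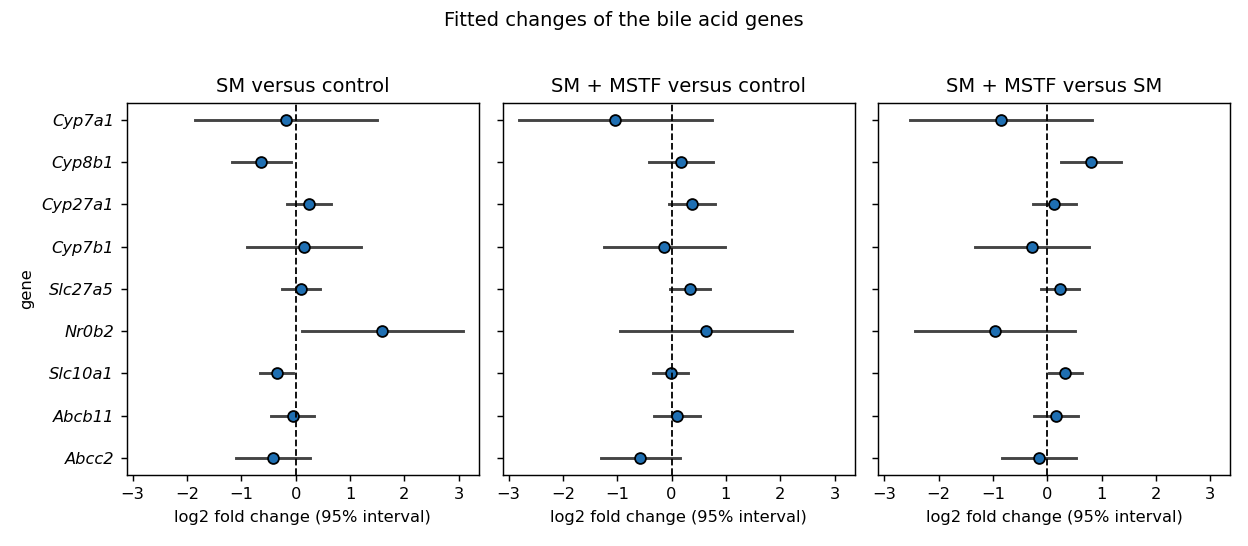
Fitted log2 fold change (horizontal axis) of the 9 measured bile acid genes in the 3 comparisons, with the 95% interval from limma as a bar. The intervals are widest for Cyp7a1 and Nr0b2 and narrowest for Slc10a1, and none of the points passed the threshold after adjustment over all tested probes.

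Several of these values rested on single arrays, SM + MSTF replicate 3 among them. Without it, SM + MSTF compared to the control gave -0.12 for Abcc2, -0.61 for Cyp7a1, 0.35 for Cyp7b1, -0.01 for Nr0b2, 0.19 for Cyp27a1 and 0.15 for Slc27a5. Against SM, the SM + MSTF values without it were 0.30 for Abcc2, -0.43 for Cyp7a1, 0.20 for Cyp7b1, -1.61 for Nr0b2, -0.06 for Cyp27a1 and 0.05 for Slc27a5. For Cyp8b1 leaving out SM + MSTF replicate 3 made little difference, with 0.19 in SM + MSTF compared to the control. In SM + MSTF compared to SM it was 0.82 (adjusted p = 0.266, and between 0.150 and 0.347 over the other settings with adjustment). Other arrays moved some values as much. Cyp8b1 in SM + MSTF compared to the control was -0.01 without SM + MSTF replicate 2 and 0.40 without control replicate 2. Cyp7a1 gave -1.84 in SM + MSTF compared to the control without SM + MSTF replicate 1 and -0.65 without SM + MSTF replicate 2. With each array left out in turn, SM compared to the control lay between -0.57 and 0.31 for Cyp7a1, -0.09 and 0.42 for Cyp7b1, 0.17 and 0.38 for Cyp27a1, and 0.05 and 0.15 for Slc27a5. For the transporters it lay between -0.42 and -0.28 (Slc10a1), -0.15 and 0.08 (Abcb11), and -0.49 and -0.30 (Abcc2). Against SM, the SM + MSTF value lay between -1.67 and -0.43 for Cyp7a1, 0.62 and 0.98 for Cyp8b1, -1.61 and -0.36 for Nr0b2, and 0.25 and 0.42 for Slc10a1. Without SM + MSTF replicate 2, SM + MSTF compared to the control gave -0.64 for Cyp7b1, 1.23 for Nr0b2 and -0.86 for Abcc2. None of the 9 genes was called with SM + MSTF replicate 3 left out, nor with any other array left out. SM + MSTF replicate 3 and the controls shared slide 1, so within that slide it could be set against them directly. There the difference from the control mean was -1.48 for Abcc2, -1.89 for Cyp7a1, -1.09 for Cyp7b1, 1.91 for Nr0b2, 0.73 for Cyp27a1 and 0.71 for Slc27a5. It was 0.15 for Cyp8b1, 0.14 for Slc10a1 and -0.19 for Abcb11. With slide as a fixed block in the fit, the Abcc2 estimate in SM + MSTF compared to the control is this same difference of 1 array, and its spread is taken from other arrays. Its adjusted p of 0.0198, which passed there for no other of the 9 genes, thus describes 1 rat against the controls and not the group. Whether this rat or its hybridization sets these values was not tested.

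The wider route was followed through 4 lists of genes, and none of their genes was called in any comparison. In SM compared to the control 8 of 15 other enzymes, 12 of 15 regulators, 11 of 13 transporters and 7 of 9 genes of bile acid sulfation, glucuronidation and hydroxylation were above 0, beside 55.9% of all tested probes. The counts were 11, 10, 7 and 8 in SM + MSTF compared to the control, beside 51.0%, and 9, 7, 6 and 7 in SM + MSTF compared to SM, beside 46.4%. In SM compared to the control 1, 2, 1 and 0 of these genes had an unadjusted p under 0.05 and 2, 2, 0 and 0 did not overlap between groups, beside 16.4% and 17.9%. In SM + MSTF compared to the control these were 1, 1, 0 and 1, and 3, 1, 0 and 2, beside 9.54% and 15.4%. In SM + MSTF compared to SM they were 1, 2, 1 and 0, and 1, 2, 0 and 0, beside 15.9% and 14.7%. The 15 tested genes of the other bile acid enzymes had a median log2 fold change of 0.05 in SM compared to the control, where the median of all tested probes was 0.03. Akr1d1, the steroid 5-beta-reductase, had the largest value there (0.71, 0.10 to 1.31, adjusted p = 0.226), and its other probe gave 0.16 (-0.33 to 0.65). Control replicate 3, at 13.42 where the other controls read 14.37 and 14.45, carried much of that value, which was 0.37 without it. The other values named by size were -0.44 for the racemase Amacr, whose other probe gave 0.03, -0.25 for Akr1c14 and 0.32 for the cholesterol 25-hydroxylase Ch25h. Akr1c14 was -0.10 without SM replicate 1. Ch25h was not well above background on control replicate 1 and was tested because the SM and SM + MSTF arrays were. The size of its difference is therefore uncertain, and without SM replicate 4 it was 0.08. In SM + MSTF compared to the control the median of this list was 0.08 and in SM + MSTF compared to SM it was 0.07, beside 0.00 and -0.02 over all tested probes.

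Among the sensors and regulators, 15 genes were tested, with a median of 0.07 in SM compared to the control, 0.12 in SM + MSTF compared to the control and -0.01 in SM + MSTF compared to SM. FXR itself, Nr1h4, read 9.55, 9.68 and 9.51 on the control arrays, 9.97, 9.48, 9.35 and 9.67 on the SM arrays, and 10.13, 10.13 and 9.75 on the SM + MSTF arrays. All SM + MSTF arrays lay above all controls, though SM + MSTF replicate 3, on the slide of the controls, did so by only 0.17 from their mean. Its log2 fold change was 0.04 in SM (-0.32 to 0.39, adjusted p = 0.936) and 0.42 in SM + MSTF (0.04 to 0.80, adjusted p = 0.483), each compared to the control, and 0.39 in SM + MSTF compared to SM (0.03 to 0.74, adjusted p = 0.284). Nr5a2 (LRH-1), which activates Cyp7a1 and Cyp8b1, gave -0.11 in SM compared to the control (-0.57 to 0.36), Hnf4a gave 0.17 (-0.30 to 0.63) and 0.08 on its other probe, and the FGF receptor Fgfr4, which relays the intestinal bile acid signal, gave 0.13 (-0.20 to 0.45). Each of these values lay near 0 with 1 array left out, at -0.01 for Nr5a2 without SM replicate 4, 0.01 for Hnf4a without SM replicate 1 and 0.02 for Fgfr4 without SM replicate 2. Its co-receptor gene Klb matched no probe and is not analysed here.

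The largest fitted values of this list in SM compared to the control were those of the coactivator Ppargc1a and of Prox1, a corepressor of Cyp7a1 transcription. Ppargc1a gave 1.11 (0.03 to 2.19, adjusted p = 0.293), but it was well above background on only 1 of the 3 control arrays and was tested because the SM arrays were. The size of its difference is therefore uncertain, and it was as low as 0.25 under another setting. Prox1 read 6.15, 6.05 and 6.10 on the control arrays, 5.43, 5.81, 5.78 and 5.81 on the SM arrays, and 6.24, 6.37 and 6.03 on the SM + MSTF arrays. All SM arrays lay below all other arrays, with a log2 fold change of -0.39 in SM compared to the control (-0.67 to -0.11, adjusted p = 0.145) and 0.51 in SM + MSTF compared to SM (0.23 to 0.78, adjusted p = 0.0976). Prox1 gave 0.11 in SM + MSTF compared to the control (-0.19 to 0.41, adjusted p = 0.815). Under other settings the Prox1 values shrank to as little as -0.17 in SM compared to the control and 0.21 in SM + MSTF compared to SM. Nr1i3 (CAR) gave 0.32 and, on its other probe, 0.38 in SM compared to the control, and Cebpa gave 0.21. Over the other settings the first of these lay between 0.16 and 0.51, and the Cebpa value between 0.14 and 0.28. Vdr and Gpbar1 were dim on each of the 10 arrays and were not tested.

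Of the other transporters 13 were tested, with a median of 0.09 in SM compared to the control, 0.07 in SM + MSTF compared to the control and -0.11 in SM + MSTF compared to SM. The 4 largest values in SM compared to the control were 0.47 for the basolateral pump Abcc4, whose other probe gave 0.12, 0.46 for Slc10a5, 0.40 for the aminophospholipid flippase Atp8b1 and 0.27 for the uptake carrier Slco1a4, whose other probe gave 0.03. The Abcc4 value rested on SM replicate 2, which read 7.69 where the other SM arrays read 5.42 to 6.07, and without that array it was -0.02. Without SM replicate 1 the Slco1a4 value was 0.10. Slc10a5 read 8.22 on SM + MSTF replicate 3 and between 5.58 and 6.71 on the other arrays. The basolateral exporter gene Slc51a was too dim to test, and its partner Slc51b matched no probe. Of the genes of bile acid sulfation, glucuronidation and hydroxylation 9 were tested, with medians of 0.16, 0.29 and 0.15 in the same order of comparisons. The smallest adjusted p of that list in SM compared to the control was 0.565. The values named by size each turned on 1 array. Cyp3a9 gave 0.57, and 1.10 without SM replicate 4, while Ugt1a1 gave 0.34, and 0.08 without SM replicate 1. Ugt2b1 gave 0.32, and 0.04 without control replicate 2, while the sulfotransferase Sult2a1 gave -0.40, and -0.12 without SM replicate 1.

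**Figure D3:**
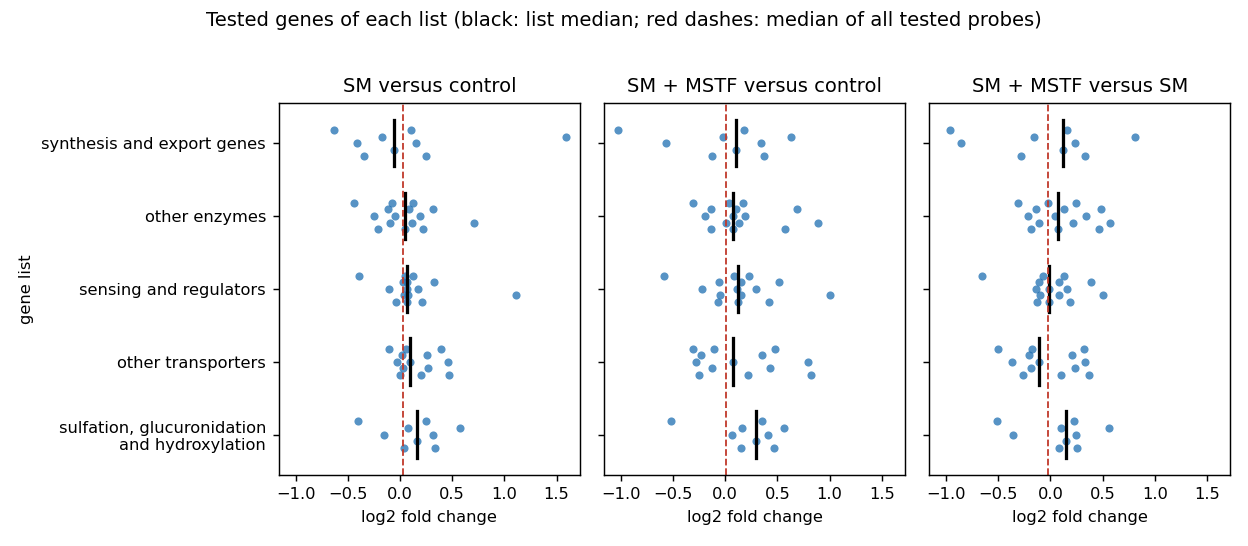
Fitted log2 fold change (horizontal axis) of each tested gene of the 9 synthesis and export genes and of 4 lists of related genes (vertical axis), in the 3 comparisons. Each point is 1 gene, black marks are list medians and red dashes the median of all tested probes; the point farthest right in SM versus control is Nr0b2, at 1.59.

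Expression of several bile acid genes follows the time of day and feeding, so the clock genes and feeding genes were read on the same arrays. Nr1d1 (REV-ERB alpha), a clock repressor, was called. It read 7.89, 7.92 and 7.17 on the control arrays, 6.90, 6.73, 6.55 and 6.94 on the SM arrays, and 7.72, 7.75 and 8.09 on the SM + MSTF arrays, so that all 4 SM arrays lay below all others. It fell by 0.88 in SM compared to the control (interval -1.31 to -0.44, adjusted p = 0.0472) and was higher by 1.07 in SM + MSTF compared to SM (0.64 to 1.51, adjusted p = 0.0318), with 0.20 in SM + MSTF compared to the control (-0.27 to 0.66, adjusted p = 0.787). The call in SM compared to the control was lost under 16 of 22 other settings, among them without any 1 of 8 arrays, all but control replicate 3 and SM + MSTF replicate 3, with adjusted p between 0.0234 and 0.183. That in SM + MSTF compared to SM was lost under 12 of 22, among them without any 1 of the 7 SM and SM + MSTF arrays, with adjusted p between 0.0123 and 0.140. The slide of the SM arrays cannot be told apart from SM here either. The other clock genes read by rule were not called, with 0.29 for Dbp (-0.41 to 0.98), -0.08 for Per2 (-1.33 to 1.17) and 0.29 for Bmal1 (-0.04 to 0.62) in SM compared to the control. Over the other settings these values lay between 0.15 and 0.43 for Dbp, -0.34 and 0.22 for Per2, and 0.19 and 0.34 for Bmal1. Cry1 and Nr1d2, named after their values were seen, were not called. Among 22 other settings, Cry1 was called under 1 in SM + MSTF compared to SM. Cry1 read 8.90, 8.74 and 9.12 on the control arrays, 9.71, 10.34, 10.00 and 9.16 on the SM arrays, and 9.11, 8.50 and 8.43 on the SM + MSTF arrays, so that all SM arrays lay above all others. Its log2 fold change was 0.88 in SM compared to the control (0.28 to 1.48, adjusted p = 0.130) and -1.12 in SM + MSTF compared to SM (-1.72 to -0.52, adjusted p = 0.0881). Nr1d2, which was not well above background on SM replicate 3, gave -0.95 (-1.55 to -0.36, adjusted p = 0.103) and 0.90 (0.30 to 1.49, adjusted p = 0.161) in these comparisons, which share the SM arrays. The probe was tested because the other groups were well above background, so the size of the difference is uncertain, and over the other settings it shrank to as little as -0.23 and 0.23. Per2 read 4.98 on SM + MSTF replicate 3 and between 6.50 and 8.17 on the other arrays. Of 12 tested clock genes only Nr1d1 was called, beside 2.40% of all tested probes in SM compared to the control and 1.26% in SM + MSTF compared to SM. Of the 12, 4 had an unadjusted p under 0.05 and 5 did not overlap between groups in SM compared to the control, beside 16.4% and 17.9%. The counts were 5 and 3 in SM + MSTF compared to SM, beside 15.9% and 14.7%, and 0 and 0 in SM + MSTF compared to the control, beside 9.54% and 15.4%. The median over the list was 0.24 in SM compared to the control and -0.19 in SM + MSTF compared to SM. The log2 of the summed signal of the clock genes, led by Nfil3, lay between 12.30 and 12.33 on the control arrays, 12.38 and 12.64 on the SM arrays, and 12.20 and 12.49 on the SM + MSTF arrays.

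**Figure D4:**
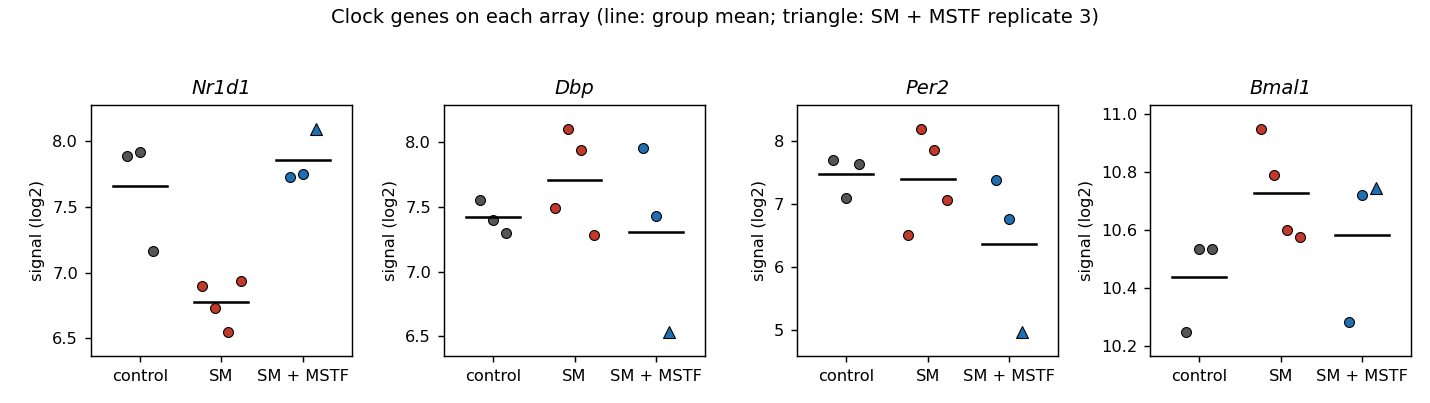
Signal (log2, vertical axis) of 4 clock genes on each array, by group, with 1 point per rat, the group mean as a line and SM + MSTF replicate 3 as a triangle. For Nr1d1 the 4 SM arrays, between 6.55 and 6.94, lie below all other arrays, and for Per2 the lowest array is SM + MSTF replicate 3, at 4.98.

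None of the 14 tested feeding and fasting genes was called in any comparison. The log2 of their summed signal, led by G6pc1, lay between 17.18 and 17.96 on the control arrays, 17.43 and 18.12 on the SM arrays, and 17.66 and 18.02 on the SM + MSTF arrays. In SM compared to the control 0 of the 14 had an unadjusted p under 0.05 and 1 did not overlap, beside 16.4% and 17.9% of all probes. The counts were 1 and 1 in SM + MSTF compared to the control, beside 9.54% and 15.4%. In SM + MSTF compared to SM they were 3 and 2, beside 15.9% and 14.7%, with a smallest adjusted p of 0.0697. The list medians were 0.16, 0.21 and 0.24 in this order, beside 0.03, 0.00 and -0.02 over all tested probes. The part of clock phase or feeding in the bile acid gene values was not tested.

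Markers of other liver cells gave no call apart from Klrd1, a natural killer cell receptor and 1 of 7 tested lymphocyte markers. It read 5.35, 5.54 and 5.46 on the control arrays, 4.46, 3.64, 4.30 and 4.53 on the SM arrays, and 5.09, 5.27 and 5.78 on the SM + MSTF arrays, so that all SM arrays lay below all others. SM replicates 2 and 3 were not well above background, and the probe was tested because the other groups were, so the size of the difference is uncertain. It fell by 1.22 in SM compared to the control (interval -1.73 to -0.71, adjusted p = 0.0277) and was higher by 1.15 in SM + MSTF compared to SM (0.64 to 1.66, adjusted p = 0.0454), with -0.07 in SM + MSTF compared to the control (-0.62 to 0.48, adjusted p = 0.946). With normexp background correction the values were -0.36 in SM compared to the control and 0.29 in SM + MSTF compared to SM, and neither was called. The former call was lost under 10 of 21 other settings, among them without any 1 of the 3 controls or without SM replicate 1 or 3, with adjusted p between 0.0131 and 0.110. The latter was lost under 16 of 21, among them without any 1 array other than SM replicate 2, with adjusted p between 0.0408 and 0.269. The log2 of the summed signal of the lymphocyte markers, led by Cd74, lay between 12.78 and 13.10 on the control arrays, 11.92 and 12.50 on the SM arrays, and 12.45 and 12.90 on the SM + MSTF arrays. All SM arrays lay below all controls in this sum. The sum is mostly Cd74, which alone read between 12.57 and 12.94 on the control arrays and 11.72 and 12.29 on the SM arrays. It is therefore no separate measure over the list. In SM compared to the control 6 of the 7 tested lymphocyte markers were below 0, with a median of -0.70, and 4 had an unadjusted p under 0.05 and 4 did not overlap between groups, beside 16.4% and 17.9% of all tested probes. Cd74 was among the latter, with -0.70 (-1.11 to -0.30, adjusted p = 0.0812), and was well above background on every array. The counts were 2 and 2 in SM + MSTF compared to SM, beside 15.9% and 14.7%, with a median of 0.40. They were 0 and 0 in SM + MSTF compared to the control, beside 9.54% and 15.4%, with a median of -0.05. The T cell marker Cd3e was too dim to test. The part of such cells in the bile acid gene values was not tested.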

How the data were processed

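The deposited intensity of each spot was read by the authors with Feature Extraction 10.7, per the file headers after background subtraction, together with other marks for spots that are not uniform, saturated or well above background. The authors also deposited log2 values of each probe after quantile normalization, which served as an alternative. Their median was 5.18 in all 10 columns, so they are not centred at 0, and each column correlated best with its own array's intensities (0.999 to 1.00).

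Control spots were left out, and spots marked as not uniform were set to missing after normalization. With R 4.3.3 and limma 3.58.1, background-subtracted intensities were quantile normalized, and the log2 values of the same probe's spots were averaged. Tested were the 22991 probes that, in 1 group or more, stood well above background on each array, with no fewer than 2 values in any group. All 10 arrays entered 1 limma fit without a block, with Benjamini-Hochberg adjustment over all probes tested. Samples were grouped by their labels. Through accessions, 17512 of 41012 probes were named from RefSeq genes of GRCr8, and 163 of 185 list entries had a probe.

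Named were all 9 measured members, the called genes of each list or otherwise the 4 pathway genes of largest change in SM compared to the control, chosen regulators and clock genes, and the most abundant marker. The members and lists were chosen with earlier results of these data known. The alternatives were normexp with an offset of 50, 75th percentile scaling, the deposited values, other filters on dim probes, no fold minimum, only the groups compared, the methods' t-test, blocks for slide or replicate number, the mean of a gene's probes, and each array left out. The procedure was tested on simulated data.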

Additional observations from a re-analysis of the deposited data

Results flagged for a closer look

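In the SM group, the only 1 large enough for this check, the lowest or highest of the 4 arrays was set against the other 3 for 49 probes of named genes, and 3 were far from the others. Chance marks about 1 in 20 groups. Prox1 read 5.43 on SM replicate 1 and between 5.78 and 5.81 on the other SM arrays. Ugt2b1 read 13.01 on SM replicate 3 and between 13.71 and 13.73 on the others. Hnf4a read 9.46 on SM replicate 1 and between 8.79 and 8.89 on the others. None of the 10 probes of the bile acid synthesis and export genes was marked in this way.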

How the results depend on the processing

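The count of bile acid genes called, 0 of 9 in each comparison, held under every alternative run except 2. The methods' t-test without adjustment called 1 gene in SM + MSTF compared to SM (Cyp8b1), and slide as a fixed block called 1 in SM + MSTF compared to the control (Abcc2), where the estimate is the difference of SM + MSTF replicate 3 alone from the controls. That block could be fitted only for this comparison. A change of sign was read as a reversal only where both values exceeded their standard errors or 1 was called, and there was none.

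The counts over all probes moved more, and the cause was not tested. In SM compared to the control, 552 probes became 217 with normexp, 342 without a filter, 337 with probes well above background on all arrays, 707 with only the groups compared, 1131 by the methods' t-test without adjustment and 320 with it, and 85 with slide as a random block. With each array left out they lay between 65 and 717. In SM + MSTF compared to SM, 290 became 58 with normexp, 141 with the stricter filter, 155 with only the groups compared, 378 with 75th percentile scaling, 863 and 13 by the t-test without and with adjustment and 102 with the slide block, and between 98 and 301 with an array left out. In SM + MSTF compared to the control, 0 became 285 by the unadjusted t-test, 290 with slide as a fixed block, and between 0 and 248 with an array left out, the highest without SM + MSTF replicate 3.

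With all arrays, the share of called probes that were higher, 40.6% in SM compared to the control, lay between 17.5% (normexp) and 51.8% (slide as a random block). In SM + MSTF compared to SM it was 25.5% and lay between 15.3% (75th percentile scaling) and 51.6% (replicate block). Of the log2 fold changes of the 9 genes under the alternatives, 628 stayed on their side of the threshold and 2 passed it.

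The replicate numbers were taken to name rats only, and the labels do not say that they pair rats. Deviations of same-numbered arrays from their group means correlated between -0.10 and 0.17 over 9 pairs, 3 of them above 0.1. In a choice among 3 arrays of another group, an array correlated best with its own number 10 of 18 times. Whether same-numbered arrays share a batch was not tested. With a replicate block, 54 probes were called in SM compared to the control, 0 in SM + MSTF compared to the control and 64 in SM + MSTF compared to SM, and 0 of the 9 genes in each. Signal over background, with a median ratio between 2.20 and 2.54 per array, and 3 or 4 arrays per group limit the precision.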

Other observations

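Lists of liver cell markers and responses not described above also gave 0 called genes in each of the 3 comparisons. Of 9 tested Kupffer cell and macrophage markers, led by Clec4f, all 9 were below 0 in SM compared to the control, with a median log2 fold change of -0.15 and a smallest adjusted p of 0.315, and 0 had an unadjusted p under 0.05 and 0 did not overlap, beside 16.4% and 17.9% of all tested probes. All 9 were above 0 in SM + MSTF compared to SM, with a median of 0.41 and a smallest adjusted p of 0.147, and 4 had an unadjusted p under 0.05 and 1 did not overlap, beside 15.9% and 14.7% of all tested probes. All 9 were also above 0 in SM + MSTF compared to the control, with a median of 0.28 and a smallest adjusted p of 0.558, and 0 had an unadjusted p under 0.05 and 3 did not overlap, beside 9.54% and 15.4%. Of all tested probes 55.9% were above 0 in SM compared to the control, 51.0% in SM + MSTF compared to the control and 46.4% in SM + MSTF compared to SM. The comparisons share arrays. The log2 of their summed signal lay between 16.72 and 17.08 on the control arrays, 16.11 and 17.02 on the SM arrays, and 16.80 and 17.14 on the SM + MSTF arrays. Of 15 tested acute phase and inflammation genes, led by Hp, 10 were above 0 in SM and 15 in SM + MSTF, each compared to the control, with medians of 0.08 and 0.29. In SM compared to the control 0 of these had an unadjusted p under 0.05 and 1 did not overlap, beside 16.4% and 17.9%. The counts were 3 and 3 in SM + MSTF compared to the control, beside 9.54% and 15.4%. In SM + MSTF compared to SM 14 of the 15 were above 0, with a median of 0.31 and a smallest adjusted p of 0.147. There 3 had an unadjusted p under 0.05 and 2 did not overlap, beside 15.9% and 14.7%. Their summed signal lay between 20.56 and 20.65 on the control arrays, 20.57 and 20.85 on the SM arrays, and 20.70 and 21.08 on the SM + MSTF arrays. Of 9 tested stellate cell and fibroblast markers, led by Col3a1, 5 were below 0 in SM and 7 in SM + MSTF, each compared to the control, with medians of -0.09 and -0.25. In SM compared to the control 3 of the 9 had an unadjusted p under 0.05 and 3 did not overlap, beside 16.4% and 17.9% of all tested probes, and the smallest adjusted p was 0.0699. The counts were 4 and 2 in SM + MSTF compared to the control, beside 9.54% and 15.4%. Their summed signal on the SM arrays, 14.38 to 14.53, lay below that on the controls, 14.74 to 14.91, and that on the SM + MSTF arrays was 14.14 to 14.85. The medians in SM compared to the control were -0.06 for 5 sinusoidal endothelial markers, led by Kdr, 0.68 for 2 neutrophil markers, led by S100a9, 0.90 for 5 erythroid genes, led by Hbb, and 0.10 for 5 bile duct cell markers. For each of these 4 lists the summed signals of SM and control arrays overlapped.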
